A study of Mus musculus with 10 samples.

Results

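The genes described here are the core machinery of mitochondrial fusion, fission and mitophagy, taken by name as 10 genes: Mfn1, Mfn2 and Opa1 for fusion, Dnm1l, Fis1 and Mff for fission, and Pink1, Bnip3, Bnip3l and Fundc1 for mitophagy. All 10 were among the 29564 gene symbols in the data, and all 10 were among the 13305 protein-coding genes tested. RNA-seq was done on left ventricle from 10 wild-type mice labelled C57BL6 (C57BL/6J in the methods). Control mice (n = 5, mice TT-583 to TT-587) had standard chow with 10% of kilocalories from fat and no aortic constriction. HFD+mTAC mice (n = 5, mice TT-588 to TT-592) had a high-fat diet (HFD, 60% of kilocalories from fat) and moderate transverse aortic constriction (mTAC), a narrowing of the aortic arch that loads the left ventricle with pressure. The study describes males operated on at 11 weeks of age, with 16 weeks of induction, to model HFpEF, a heart failure in which the ejection fraction is preserved. Every mouse carries the treatment label vehicle, and the protocol gives the vehicle to HFD+mTAC mice at 10 mL/kg daily for 6 to 9 weeks, so no active drug and no engineered allele was present in either group. The age at tissue collection was not given in the sources used here. No mice with the diet alone or the constriction alone were analysed here, so the effects of diet and constriction cannot be told apart. The RNA came from ventricle homogenate, in which fewer cells of a type and less RNA per cell cannot be told apart either.

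Mitochondria in the heart join and divide, and damaged ones are removed by autophagy. The outer membranes are fused by the mitofusins, which are GTPases, and the inner membranes by Opa1, a dynamin-related GTPase whose forms are set by proteases. Division needs the cytosolic GTPase Drp1, the product of Dnm1l, which is drawn to the outer membrane by receptors such as Mff, while Fis1 is an outer membrane anchor with a debated part in that step. In mitophagy the kinase Pink1 accumulates on damaged mitochondria and phosphorylates ubiquitin there, whereas Bnip3, Bnip3l (also called Nix) and Fundc1 are outer membrane receptors that bind the autophagosome protein LC3 directly. Bnip3 is also a known target of the hypoxia-inducible factor HIF. The comparison asks whether the mRNA levels of these genes differed between the left ventricle of the HFpEF model and the control ventricle.

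The upstream sequences of 3 of the genes are shown because they hold a binding motif for a regulator of mitochondrial or hypoxia-responsive genes. RefSeq windows on GRCm38.p6 were found for 9 of the 10 genes (not for Bnip3l), and the 250 bases before 1 start site per gene, the nearest to the annotated gene start, were searched on both strands. The motif of nuclear respiratory factor 1 (NRF1), GCGCNNGCGC, stood in 3 of the 9 and in 4.98% of 32851 windows of the same length. The HIF core motif ACGTG stood in 1 of 9, Bnip3, and in 16.6% of all windows. The motif AAGGTCA of estrogen-related receptors was in 0 of 9 and in 4.08% of all windows, and the FOXO motif GTAAACA in 0 of 9 and in 3.17%. Positions count back from -1, the base before the start site. The capitals mark the NRF1 motif at -59 in Opa1 (chr16:29579084-29579333, + strand), at -10 in Pink1 (chr4:138326297-138326546, - strand) and at -120 in Bnip3 (chr7:138909507-138909756, - strand), where the second run of capitals is the palindrome CACGTG, which holds the HIF core on both strands from -108.
Opa1: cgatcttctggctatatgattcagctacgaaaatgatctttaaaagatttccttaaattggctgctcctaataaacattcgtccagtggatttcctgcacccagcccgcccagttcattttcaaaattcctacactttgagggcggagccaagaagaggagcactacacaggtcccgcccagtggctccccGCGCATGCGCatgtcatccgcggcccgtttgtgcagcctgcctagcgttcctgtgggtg
Pink1: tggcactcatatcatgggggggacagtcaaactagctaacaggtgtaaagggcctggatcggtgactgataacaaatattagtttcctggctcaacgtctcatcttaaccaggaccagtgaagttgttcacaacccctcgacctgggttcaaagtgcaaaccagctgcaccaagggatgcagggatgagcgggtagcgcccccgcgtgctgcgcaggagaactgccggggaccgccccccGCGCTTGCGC
Bnip3: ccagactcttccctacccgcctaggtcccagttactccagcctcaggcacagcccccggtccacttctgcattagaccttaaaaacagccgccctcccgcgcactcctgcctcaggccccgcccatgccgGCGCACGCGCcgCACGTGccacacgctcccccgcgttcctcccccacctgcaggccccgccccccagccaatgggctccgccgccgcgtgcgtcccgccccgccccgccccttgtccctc

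Sequencing gave 34170139 to 53672260 estimated counts per mouse, with 12650682 to 21073411 on the tested genes, and the 10 genes took 0.294 to 0.347% of the counts on tested genes. Mitochondrially encoded transcripts made up 47.8% ± 3.57 of all counts in controls and 50.1% ± 2.37 in HFD+mTAC mice (SD, n = 5 each, two-sided exact permutation p = 0.246). Values listed mouse by mouse follow the order of the mouse numbers. Levels below are counts-per-million values (CPM) on the tested genes after TMM scaling. The labelled tissue carried its markers: the summed CPM of 7 cardiomyocyte genes was 40201 to 50876 across all mice, while the atrial genes Myl7 and Sln averaged under 1 CPM, all 4 atrial genes together (with Nppa and Myl4) summed to 198 to 376 CPM in controls and 122 to 338 CPM in HFD+mTAC mice, and the 4 adipocyte genes together reached at most 3.30 CPM. The cardiomyocyte sum was lower in HFD+mTAC mice (42679 ± 2108, range 40201 to 45635) than in controls (49072 ± 1213, range 47561 to 50876). The groups did not overlap, 7 of 7 genes had the lower mean, and the exact permutation p was 0.00794, the smallest that 5 against 5 mice can give (0.0714 after adjustment over 9 marker lists). The sums of the 8 other lists (fibroblast, endothelial, mural, macrophage, lymphocyte, adipocyte, atrial, erythroid) overlapped between groups, with exact permutation p from 0.119 to 1. What part the cardiomyocyte markers have in the values below was not tested.

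None of the 10 genes passed the test between HFD+mTAC and control ventricles. With edgeR's quasi-likelihood test and an adjusted p under 0.05, 0 of 10 were called, beside 8 of 13305 genes overall (0.0601%). DESeq2 also called 0 of 10, beside 120 of 13037 genes (0.92%), and at an unadjusted edgeR p under 0.05 the count was again 0 of 10, beside 1099 of 13305 (8.26%). The groups overlapped in CPM for all 10 genes, as they did for all but 261 of the 13305 (1.96%). The log2 fold change was above 0 for 3 genes (Opa1, Bnip3 and Fundc1) and below 0 for 7. The median size of the log2 fold change was 0.044 over the 10 genes and 0.12 over all genes tested, and the signed medians were -0.03 and 0.0017. In the count-based edgeR fit the 95% limits farthest from 0 were -24.6% (Mfn1) and 29.8% (Opa1). The limits farthest from 0 were larger with limma on log2(TPM + 1), where TPM is the length-scaled abundance. They were -32.3% (Mfn2) and 82.8% (Fundc1) with TPM rescaled to a fixed sum over the tested genes, and -40.7% and 58.7% (both Mfn2) with TPM as deposited. These percentages are changes in TPM + 1, and the added 1 shrinks a change in TPM most where TPM is low. Deposited TPM averaged 3.62 for Fundc1, whose upper limit on that scale was 55.7%, and 20.2 for Mfn2.

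**Figure D1:**
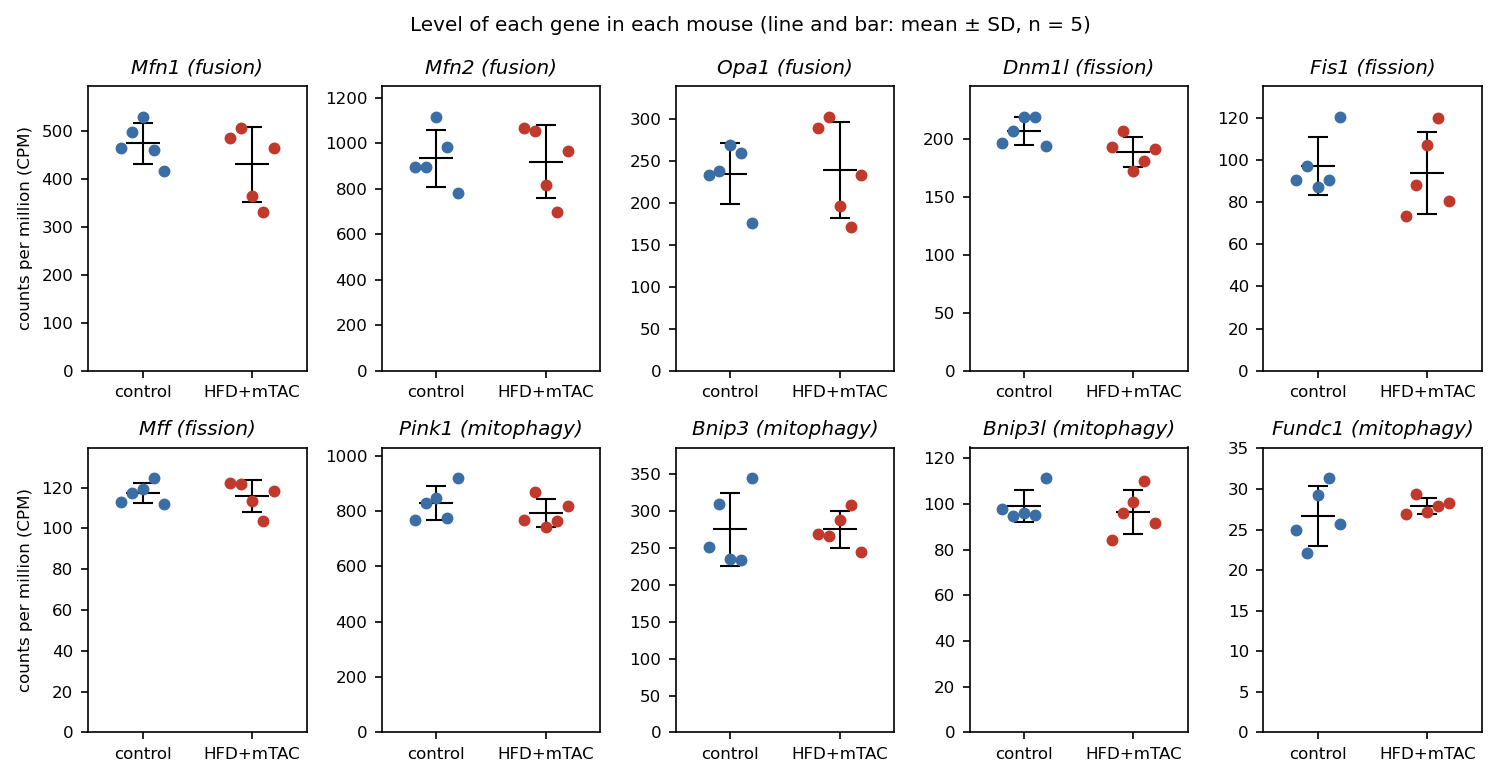
Level of each of the 10 genes in each mouse, in CPM on an axis from 0, with controls in blue, HFD+mTAC mice in red, and the mean ± SD of 5 mice in black. The groups overlap in every panel, and Dnm1l has 4 of 5 HFD+mTAC mice below the lowest control.

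Among the fusion genes, Mfn1 (chr3:32529465-32579239, GRCm38, + strand), an outer membrane mitofusin, measured 465.6, 499.6, 531.2, 462.3 and 418.1 CPM in the control mice. It measured 487.2, 507.8, 365.7, 331.8 and 465.0 CPM in HFD+mTAC mice. Mice TT-590 and TT-591 lay below every control and the other 3 within the control range. The means were 475 ± 42.6 and 431 ± 77.9 CPM (SD, n = 5 each), and the log2 fold change was -0.14 ± 0.12 (SE, 95% interval -0.41 to 0.13, edgeR adjusted p = 0.831).

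Mfn2 (chr4:147873599-147904704, - strand), the second mitofusin, which also tethers mitochondria to the endoplasmic reticulum, measured 893.8, 896.4, 1117.5, 982.3 and 780.2 CPM in controls. In HFD+mTAC mice it measured 1066.7, 1053.6, 815.5, 696.6 and 967.2 CPM. Only mouse TT-591 lay outside the control range, below it. The means of 934 ± 125 and 920 ± 160 CPM gave a log2 fold change of -0.02 ± 0.13 (SE, 95% interval -0.31 to 0.26, edgeR adjusted p = 0.983). Mfn2 counts exceeded Mfn1 counts in every mouse, by 1.79 to 2.23 times, which is a ratio of counts and not of transcript numbers, as the lengths differ.

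Opa1 (chr16:29579334-29654884, + strand), the inner membrane GTPase, had the widest relative spread of the 10 genes, with a coefficient of variation of 19.1% over the 10 mice. Its level was 232.6, 237.4, 268.7, 258.9 and 175.6 CPM in controls. In HFD+mTAC mice it was 289.5, 302.6, 196.5, 171.2 and 233.2 CPM. Mice TT-588 and TT-589 were above every control and mouse TT-591 below every control, so the spread of the HFD+mTAC mice ran past that of the controls on both sides. The means were 235 ± 36.2 and 239 ± 57.1 CPM, a log2 fold change of 0.02 ± 0.16 (SE, 95% interval -0.33 to 0.38, edgeR adjusted p = 0.984).

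Of the fission genes, Dnm1l (chr16:16312230-16358959, - strand), which encodes the GTPase that constricts mitochondria, came closest to a difference. It measured 196.7, 207.1, 219.0, 219.4 and 193.8 CPM in controls and 193.3, 206.9, 172.5, 181.2 and 191.8 CPM in HFD+mTAC mice. Mouse TT-589 alone lay within the control range and the other 4 were below it. The means were 207 ± 12.0 and 189 ± 13.0 CPM, a log2 fold change of -0.13 ± 0.076 (SE, 95% interval -0.30 to 0.03, that is -18.6% to 2.34%, edgeR unadjusted p = 0.108, adjusted p = 0.706). An exact permutation test on the log2 CPM of this gene alone gave p = 0.0397, the lowest of 10 such tests, 1 per gene and not adjusted. With the first principal component of the tested genes other than the 10 as a covariate, the log2 fold change was -0.16 (edgeR unadjusted p = 0.012, adjusted p = 0.219). This was the lowest adjusted p of any of the 10 genes under 24 settings. In that fit 13.3% of all genes had an unadjusted p under 0.05, and Mfn1 was close, at -0.22 (edgeR unadjusted p = 0.0125, adjusted p = 0.221). With transcript lengths as offset, the log2 fold change of Dnm1l was -0.20 (edgeR unadjusted p = 0.0394, adjusted p = 0.652). In the offset fit 7.46% of all genes had an unadjusted p under 0.05. With limma on log2 of the deposited TPM + 1 the log2 fold change of Dnm1l was -0.29 (unadjusted p = 0.0357, adjusted p = 0.928), and with the rescaled TPM -0.16 (unadjusted p = 0.0708, adjusted p = 0.767).

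Mff (chr1:82724890-82752394, + strand), the main outer membrane receptor for Drp1, had the smallest relative spread, with a coefficient of variation of 5.31%. It measured 113.1, 117.3, 119.4, 124.7 and 112.1 CPM in controls and 122.3, 121.7, 113.3, 103.6 and 118.4 CPM in HFD+mTAC mice. Mouse TT-591 was below every control and the other 4 were within their range. The means of 117 ± 5.08 and 116 ± 7.70 CPM differed by -0.02 ± 0.072 on the log2 scale (SE, 95% interval -0.17 to 0.14, edgeR adjusted p = 0.971).

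Fis1 (chr5:136953275-136966234, + strand), the tail-anchored outer membrane protein, measured 90.6, 96.9, 87.2, 90.3 and 120.5 CPM in controls. In HFD+mTAC mice it measured 73.4, 88.1, 107.1, 119.6 and 80.4 CPM. Control mouse TT-587 stood above every other mouse, and mice TT-588 and TT-592 were below every control. The means were 97.1 ± 13.5 and 93.7 ± 19.2 CPM, a log2 fold change of -0.05 ± 0.14 (SE, 95% interval -0.35 to 0.25, edgeR adjusted p = 0.954).

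Among the mitophagy genes, Pink1 (chr4:138313409-138326307, - strand), the kinase that marks damaged mitochondria, measured 766.8, 827.9, 848.2, 776.2 and 919.4 CPM in controls and 767.4, 868.3, 741.4, 764.9 and 817.2 CPM in HFD+mTAC mice. Control mouse TT-587 was the highest and mice TT-590 and TT-591 were the lowest, just under the control range. The means were 828 ± 61.6 and 792 ± 50.9 CPM, a log2 fold change of -0.06 ± 0.080 (SE, 95% interval -0.24 to 0.11, edgeR adjusted p = 0.901).

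Bnip3 (chr7:138890836-138909519, - strand), the HIF-responsive receptor whose upstream window holds CACGTG, measured 251.8, 309.2, 235.5, 233.5 and 344.6 CPM in controls. In HFD+mTAC mice it measured 268.2, 265.6, 287.9, 308.7 and 244.1 CPM. All 5 HFD+mTAC mice lay within the control range, and the means were equal to the printed digit, 274.9 ± 49.6 and 274.9 ± 24.4 CPM (log2 95% interval -0.26 to 0.26). A list of 15 hypoxia response genes, of which 14 were tested, had 6 above and 8 below 0, where 50.4% of all genes were above 0. In this list 0 were called by edgeR or DESeq2, 2 had an unadjusted edgeR p under 0.05 (8.26% of all genes did), and the median log2 fold change was -0.06. Its member Ldha, lactate dehydrogenase A, had a log2 fold change of -1.15 ± 0.40 (SE, edgeR adjusted p = 0.440) that became 0.16 when the deposited transcript lengths entered the fit. Bhlhe40, a transcriptional repressor, had -0.37 ± 0.16 (adjusted p = 0.543) and Pdk1, a pyruvate dehydrogenase kinase, 0.29 ± 0.14 (adjusted p = 0.627).

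Bnip3l (chr14:66985239-67008877, - strand), the Bnip3 homologue, measured 97.9, 94.6, 95.9, 95.3 and 111.3 CPM in controls and 84.1, 95.9, 100.7, 110.0 and 91.6 CPM in HFD+mTAC mice. Control mouse TT-587 was again the highest, with mouse TT-591 next to it. The means of 99.0 ± 6.99 and 96.4 ± 9.71 CPM gave a log2 fold change of -0.04 ± 0.086 (SE, 95% interval -0.22 to 0.15, edgeR adjusted p = 0.945).

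Fundc1 (chrX:17556564-17572325, - strand), a mitophagy receptor, had the fewest counts of the 10 genes, with 24.9, 22.1, 29.3, 31.4 and 25.7 CPM in controls and 26.9, 29.3, 27.2, 27.9 and 28.3 CPM in HFD+mTAC mice. All 5 HFD+mTAC mice lay within the control range. The means were 26.7 ± 3.66 and 27.9 ± 0.957 CPM, a log2 fold change of 0.07 ± 0.10 (SE, 95% interval -0.16 to 0.29, edgeR adjusted p = 0.919). The difference depended on the unit: with limma on log2(TPM + 1) it was 0.44 with TPM rescaled over the tested genes (unadjusted p = 0.0501, adjusted p = 0.742) and 0.23 with TPM as deposited (unadjusted p = 0.248, adjusted p = 0.928). The tested genes held 15.99% ± 2.34 of the deposited TPM in controls and 14.3% ± 1.67 in HFD+mTAC mice (SD, n = 5 each, exact permutation p = 0.183), a difference that the rescaling removes. The added 1 also shrinks the difference more at low TPM, and the deposited TPM of Fundc1 averaged 3.28 in controls and 3.96 in HFD+mTAC mice. With 0.1 added in place of 1, the rescaled difference was 0.45 (limma unadjusted p = 0.0577, adjusted p = 0.754). The deposited length of Fundc1 averaged 1329 ± 339.8 bases in controls and 1056 ± 205 in HFD+mTAC mice.

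**Figure D2:**
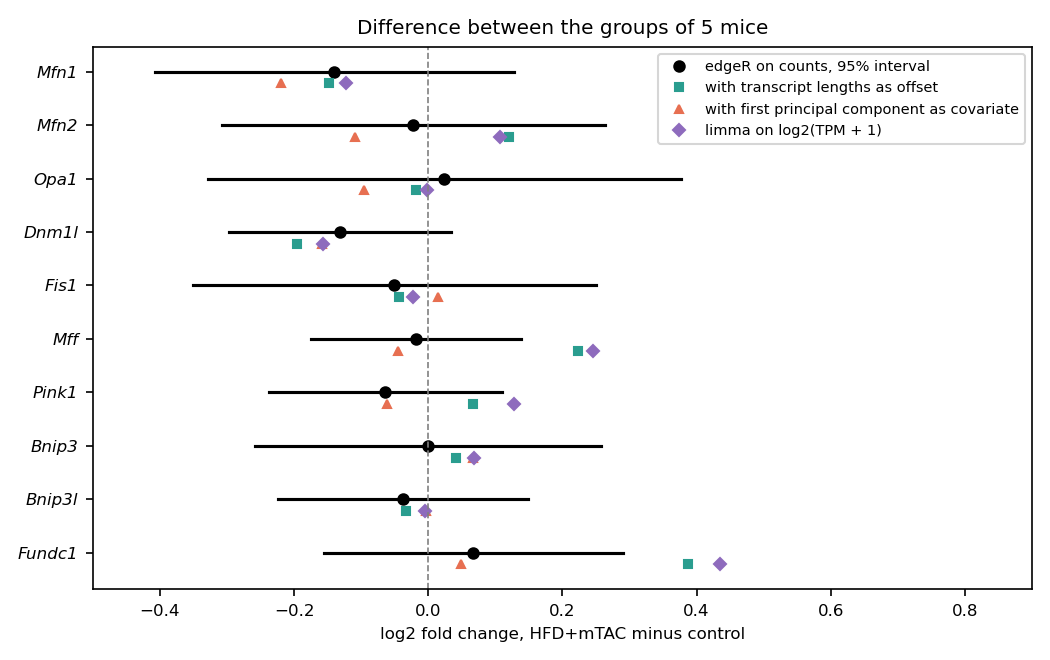
Log2 fold change (HFD+mTAC minus control) of each gene, with the edgeR estimate and its 95% interval in black and 3 alternative estimates as coloured marks below (TPM rescaled over the tested genes). Every interval spans 0. The estimates that use transcript length lie to the right of the count-based estimate for Mfn2, Mff, Pink1 and Fundc1. They lie to the right by less for Fis1, Bnip3 and Bnip3l, to the left for Opa1 and Dnm1l, and on either side for Mfn1.

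None of the partner genes passed the test either. Of 83 genes in 6 lists, 79 were tested, 39 were above and 40 below 0, and 0 were called by edgeR or DESeq2. At an unadjusted p under 0.05 there were 4 (5.06%), beside 8.26% of all genes. In the fusion list of 13 (mitofusin partners and the proteases and scaffolds acting on Opa1), 4 were above and 9 below 0, with a median log2 fold change of -0.05. Phb, prohibitin, a scaffold of the inner membrane, measured 263 ± 49.3 CPM in controls and 210 ± 15.3 in HFD+mTAC mice (log2 fold change -0.33 ± 0.12, unadjusted p = 0.0157, adjusted p = 0.459). Mtch2, an outer membrane carrier homologue, had -0.16 (adjusted p = 0.587), and Miga2, mitoguardin 2, had -0.20 (adjusted p = 0.691).

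In the fission list of 14, of which 11 were tested (Mtfr2, Gdap1 and Marchf5 were not), 6 were above and 5 below 0. Inf2, a formin that builds the actin filaments of endoplasmic reticulum at division sites, had the lowest unadjusted p of the 6 lists. It measured 11.3 ± 1.85 CPM in controls (range 8.46 to 13.5) and 16.3 ± 2.58 CPM in HFD+mTAC mice (range 13.8 to 19.2), without overlap (1.96% of all genes did not overlap), at a log2 fold change of 0.53 ± 0.15 (SE, unadjusted p = 0.00356, adjusted p = 0.299). Mief2, which recruits Drp1, had 0.18 (adjusted p = 0.627) and Spire1, an actin nucleator, had -0.30 (adjusted p = 0.714).

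The list of MICOS and sorting assembly genes, which shape the cristae, had 8 of 8 genes below 0 with a median of -0.12, where 50.4% of all genes were above 0. None of the 8 was called, and 1 had an unadjusted p under 0.05. That gene was Apoo (Mic26), with 218 ± 15.8 and 181 ± 27.7 CPM (log2 fold change -0.27, unadjusted p = 0.0266, adjusted p = 0.516). Samm50, the sorting and assembly channel, had -0.15 (adjusted p = 0.669) and Micos13 had -0.22 (adjusted p = 0.707). The cardiomyocyte marker sum, given above, was likewise lower in HFD+mTAC mice, and its part in these values was not tested.

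Around Pink1, the pathway list of 13 had 7 above and 6 below 0 with a median of 0.02. Parl, the protease that cleaves Pink1, had a log2 fold change of -0.17 (adjusted p = 0.627), and Rhot2 (Miro2), an outer membrane GTPase of mitochondrial transport, had -0.22 (adjusted p = 0.640). Rhot2 turned to 0.42 when transcript lengths entered the fit. Among 11 other receptors and adaptors, 10 were tested (Calcoco2 was not), 7 above and 3 below 0, with Optn (optineurin) at -0.23, Sqstm1 (p62) at 0.11 and Calcoco1 at -0.08 (adjusted p = 0.686, 0.818 and 0.883). The 24 core autophagy genes had 15 above and 9 below 0, a median of 0.03, and 0 with an unadjusted p under 0.05. Gabarap, an LC3 homologue, stood at -0.21, the kinase gene Ulk2 at 0.17 and Atg13, its complex partner, at 0.16 (edgeR adjusted p = 0.709, 0.714 and 0.732).

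**Figure D3:**
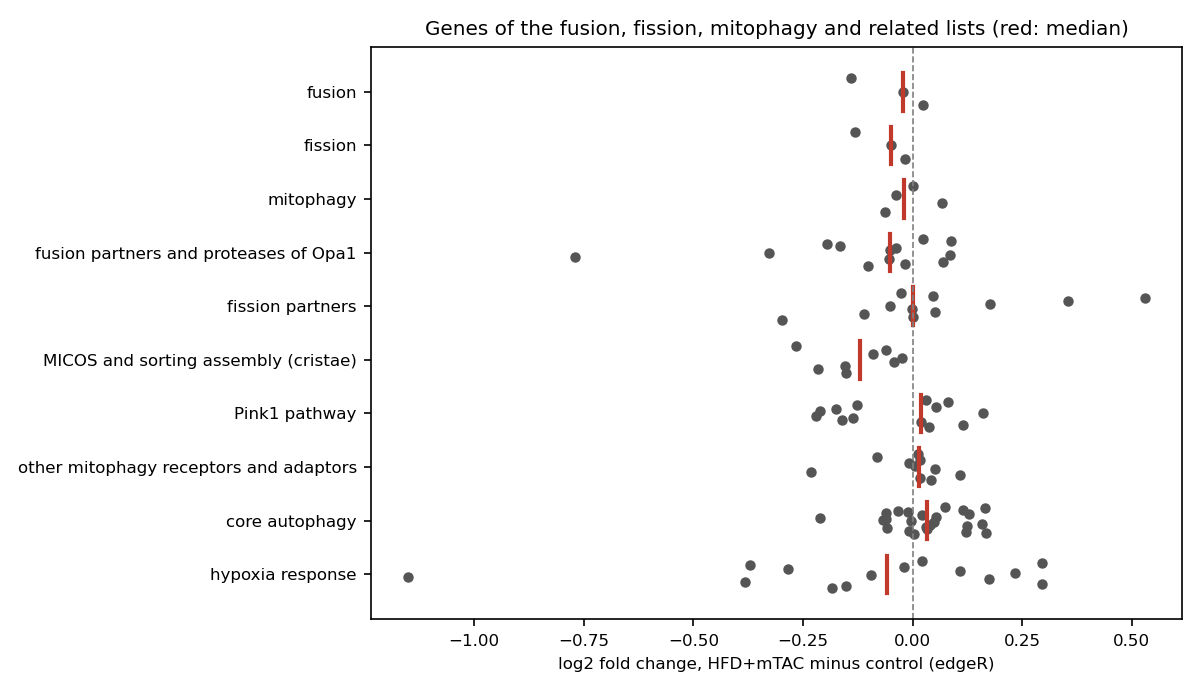
Log2 fold change (HFD+mTAC minus control) of each tested gene in the 10 genes' own groups, the 6 partner lists and the hypoxia list, with the list median in red. The medians lie between -0.12 (MICOS) and 0.03 (core autophagy). The farthest point on the left is Ldha of the hypoxia list at -1.15, and the farthest on the right is Inf2 at 0.53.

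Several of the genes varied together from mouse to mouse in CPM. Over the 10 mice, on log2 CPM, 17 of the 45 pairs had a correlation with an adjusted permutation p under 0.05 (Pearson, 100000 permutations, adjusted over the 45 pairs), 9 positive and 8 negative, and 8 pairs passed by Spearman's rho. The count rested in part on single mice: it was 2 without mouse TT-591, 10 without mouse TT-590, and up to 21 without another mouse. The levels are shares of the same library totals, so they are not free of each other. How many pairs of other genes would pass was not computed, so the count cannot be read as particular to these genes. The fusion genes and Mff were high in the same mice, whereas Fis1 and Bnip3l were high in the mice where those were low. The pattern depended on the unit: 25 of the 45 pairs had r above 0 on log2 CPM, 41 on log2(TPM + 1) with TPM as deposited and 28 with TPM rescaled over the tested genes, and 10 and 4 pairs passed on the TPM scales. On deposited TPM, Mfn1 and Bnip3l had r = 0.808 and rho = 0.564 (adjusted permutation p = 0.0348 and 0.259, r = 0.319 without the 2 mice farthest from the median), and the values were 0.320 for Mfn1 and Fis1, 0.502 for Opa1 and Bnip3l, -0.159 for Opa1 and Fis1 and -0.475 for Mfn2 and Fis1, none of these 4 passing. On rescaled TPM, Opa1 and Fis1 had r = -0.878 and Mfn2 and Fis1 r = -0.850, and both passed (adjusted permutation p = 0.0108 and 0.0133). The rho values there were -0.673 and -0.891 (adjusted permutation p = 0.174 and 0.0258).

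The closest pair was Fis1 and Bnip3l, a fission anchor and a mitophagy receptor, with r = 0.956 and rho = 0.83 (adjusted permutation p = 0.0018 and 0.036, r = 0.882 without the 2 mice farthest from the median). Mfn2 and Opa1, outer and inner membrane fusion, followed with r = 0.948 and rho = 0.939 (adjusted permutation p = 0.0018 and 0.0099, r = 0.968 without 2 mice). Mfn2 and Mff, on opposite sides of the fusion and fission divide, had r = 0.893 and rho = 0.879 (adjusted permutation p = 0.00432 and 0.019, r = 0.878 without 2 mice). After removal of the group means these 3 values were 0.956, 0.951 and 0.894.

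On the negative side, Mfn2 and Fis1 had r = -0.88 and rho = -0.879 (adjusted permutation p = 0.00712 and 0.019, r = -0.899 without 2 mice). Opa1 and Fis1 had r = -0.874 and rho = -0.794 (adjusted permutation p = 0.00971 and 0.0467), and r was -0.674 without 2 mice. Opa1 and Bnip3l had r = -0.835 and rho = -0.709 (adjusted permutation p = 0.0131 and 0.109), and r was -0.548 without 2 mice, so this relation rested in part on those mice. The ratio of Mfn2 to Fis1 counts ran over 9.87, 9.25, 12.8, 10.9 and 6.48 in controls and over 14.5, 12.0, 7.61, 5.82 and 12.0 in HFD+mTAC mice. The lowest ratios belonged to mouse TT-591 of the HFD+mTAC group and mouse TT-587 of the controls, 1 in each group.

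**Figure D4:**
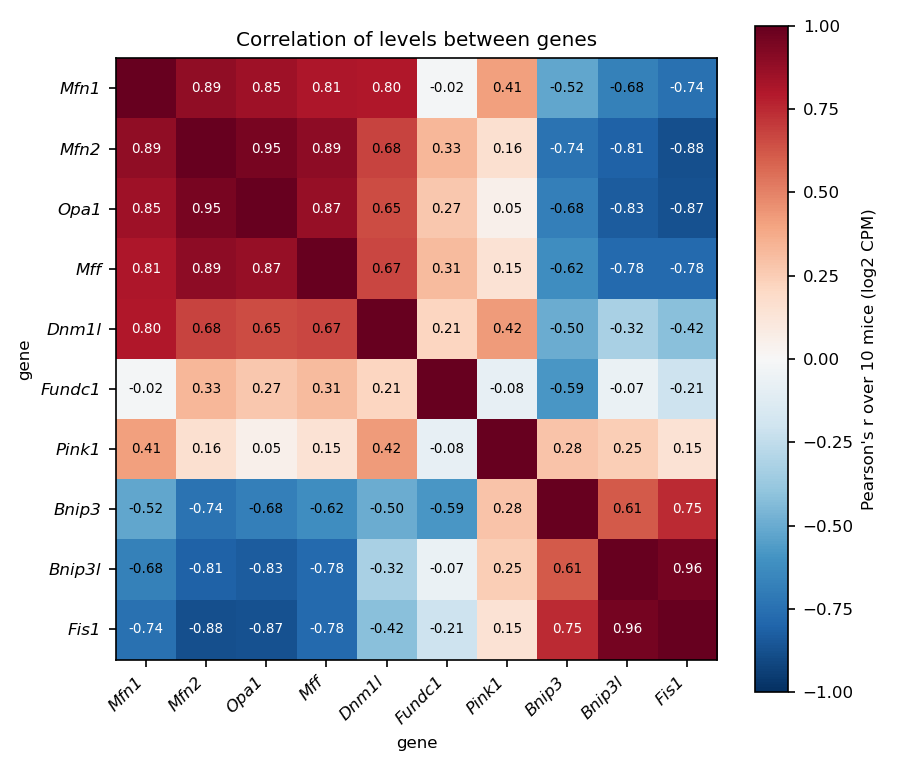
Pearson's r of log2 CPM over 10 mice for each of the 45 pairs, printed in each cell and coloured from blue (-1) to red (1). The upper left block of Mfn1, Mfn2, Opa1, Mff and Dnm1l is red, the lower right block of Bnip3, Bnip3l and Fis1 is red, the cells between the blocks are blue, and Fundc1 and Pink1 are pale against most genes.

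The levels also moved with a measure over other genes, taken from those with a mean of at least 5 CPM and without the 10 genes themselves. The median log2 level of genes with long annotated transcripts (1952 genes of at least 5383 bases) minus that of genes with short ones (1955 genes of at most 1854 bases), centred over mice, was -0.09, -0.13, 0.10, 0.03 and -0.15 in controls. It was 0.31, 0.12, -0.21, -0.09 and 0.08 in HFD+mTAC mice (exact permutation p = 0.421 between groups). Fis1 followed it with r = -0.833 (rho = -0.891), Mfn2 with 0.781 (rho = 0.842), Opa1 with 0.780 (rho = 0.818) and Bnip3l with -0.761 (rho = -0.648), with adjusted permutation p of 0.0259, 0.0266, 0.0266 and 0.0282 for r over the 10 genes and 0.0113, 0.0189, 0.0197 and 0.0842 for rho. Without the 2 mice farthest from the median, r was -0.752, 0.809, 0.762 and -0.627. Pink1 had the weakest relation (r = 0.02, rho = 0.236, permutation p = 0.955 and 0.514, r = 0.05 without 2 mice). The first principal component of the tested genes other than the 10 held 21.5% of the variance (exact permutation p = 0.595 between groups). With it, 5 of the 10 genes had an absolute r over 0.8 (Opa1, Mfn2, Fis1, Bnip3l and Mff), beside 12.2% of all genes. With the length balance 1 of the 10 genes (Fis1) had an absolute r over 0.8, beside 7.98% of all genes.

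Markers of some other cell types moved with Mfn2 too. The summed mural markers correlated with Mfn2 at r = -0.873 (rho = -0.842, r = -0.766 without 2 mice), endothelial markers at -0.858 (rho = -0.770, r = -0.793) and fibroblast markers at -0.792 (rho = -0.842, r = -0.719). Their permutation p values for r were 0.0111, 0.0111 and 0.0328 after adjustment over 14 relations (marker lists with Mfn2 and with Fis1), and 0.0036, 0.0123 and 0.00378 for rho without adjustment. Macrophage (r = -0.397), atrial (-0.264) and erythroid markers (-0.119) did not pass with Mfn2 (adjusted permutation p = 0.416, 0.536 and 0.798), though the atrial r was -0.811 without 2 mice. With Fis1 no list passed, the closest being the mural markers (r = 0.717, adjusted permutation p = 0.071). The cardiomyocyte sum, which separated the groups, had r = 0.388 with Mfn2 (rho = 0.333, permutation p = 0.268 and 0.352, r = -0.291 without 2 mice). What part the length balance or the other cell types have in the correlations among the 10 genes was not tested. With the length balance as a covariate, the log2 fold change was -0.24 for Mfn1 (edgeR unadjusted p = 0.0185, adjusted p = 0.313) and -0.17 for Dnm1l (unadjusted p = 0.015, adjusted p = 0.287), beside 11.8% of all genes with an unadjusted p under 0.05 in that fit.

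**Figure D5:**
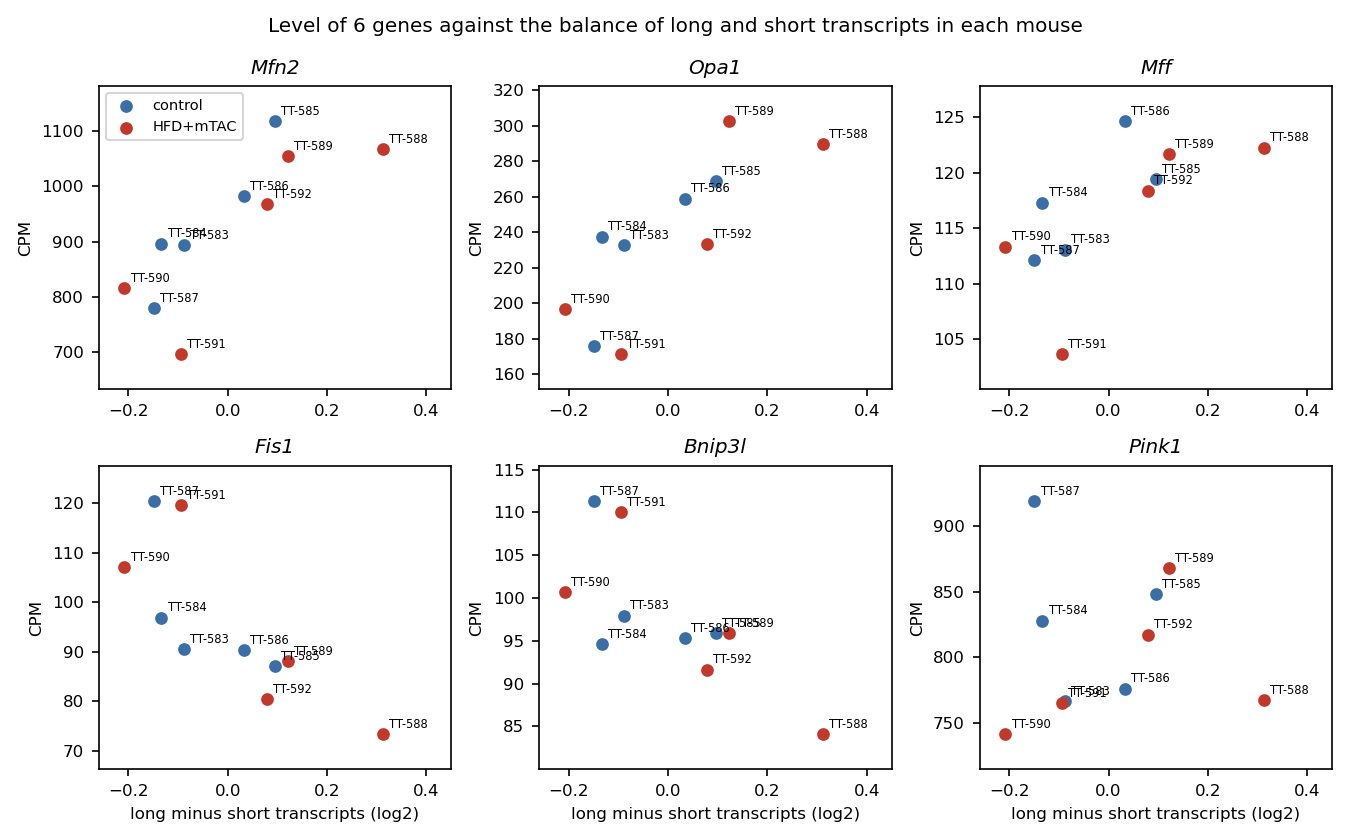
CPM of 6 genes in each mouse against the median log2 level of long-transcript genes minus short-transcript genes in that mouse, with controls in blue and HFD+mTAC mice in red (the vertical axes do not start at 0). Mfn2, Opa1 and Mff run upward, Fis1 and Bnip3l run downward, Pink1 shows no slope, and both groups are spread along the horizontal axis.

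The gene most like each of the 10 over the mice, out of 13304 others, was as follows, as a description of log2 CPM in 10 mice chosen for its r. Mfn2 was closest to Atp2a2, the sarcoplasmic reticulum calcium pump (r = 0.992), Opa1 to Prkar2a, a regulatory subunit of protein kinase A (r = 0.985), and Mfn1 to Atp5a1, a subunit of the mitochondrial ATP synthase (r = 0.971). Fis1 was closest to Rps20, a ribosomal protein gene (r = 0.972), and Bnip3l to Myo7a, an unconventional myosin (r = 0.965). For Mff, Bnip3, Dnm1l, Fundc1 and Pink1 the closest genes were Blzf1 (0.964), Zfp511 (0.953), Hnrnph2 (0.943), Psmc3ip (0.940) and 1700088E04Rik (0.903).

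Levels between genes can be compared only per length, and here the order turned on which length was used. In TPM, Mfn1 was highest at 419.6 ± 84.4 (SD, n = 10), above Pink1 (119 ± 22.1), Fis1 (55.3 ± 8.11), Bnip3l (30.7 ± 3.37), Mff (30.6 ± 5.79), Bnip3 (25.7 ± 3.77), Mfn2 (20.2 ± 6.71), Dnm1l (10.4 ± 1.90), Opa1 (4.64 ± 1.31) and Fundc1 (3.62 ± 0.941). Bnip3l and Mff could not be ordered, since Bnip3l was the higher in 6 of 10 mice, while each other neighbour kept its place in 9 or 10 mice. In CPM per 1000 bases of the longest annotated coding transcript, Pink1 was highest at 341 ± 23.8, followed by Mfn2 at 214 ± 31.3 and Bnip3 at 157 ± 20.98, while Mfn1, at 99.4 ± 13.9, did not separate from Fis1 at 101 ± 16.6. Fundc1 was last on both scales, at 13.8 ± 1.31 CPM per 1000 bases.

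The deposited effective length, which stands behind TPM, was far from the annotated length for some of the genes. Effective and annotated length are different measures, so they need not be equal. The effective length of Mfn1 was 135 to 197 bases over the 10 mice, whereas its annotated transcripts run from 246 to 4562 bases. Mfn2 had 5232 to 9278 bases and Opa1 6722 to 8571, above their longest annotated transcripts of 4341 and 6230 bases. Such values were common: the mean effective length exceeded the longest annotated transcript in 47.8% of 12814 tested genes with an annotated length and was under the shortest in 10.3%, beside 2 (Mfn2, Opa1) and 3 (Mfn1, Fis1, Pink1) of the 10 genes. No length passed the test between the groups by limma on log2 length, with 0 of 10 genes and 0 of 13305 genes called, 0 of 10 and 499 (3.75%) at an unadjusted p under 0.05. The log2 differences with the lowest p were 0.09 for Dnm1l, -0.20 for Mff and -0.31 for Fundc1, each with a limma adjusted p of 0.718.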

How the data were processed

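Left ventricle polyA RNA from 10 mice was sequenced with a stranded mRNA kit. The authors quantified transcripts with Salmon 1.6.0 (per the labels) on a mouse reference that the methods name as GRCm38 (the submitters' processing notes list hg38, and labels and methods differ in the read layout) and deposited, per mouse, estimated counts per gene summed with tximport, TPM and the average effective transcript length in bases. The deposited expected counts were rounded to whole numbers (20.07% were not whole within 1e-09), and the deposited TPM matched counts over length scaled to a fixed sum within a relative difference of 0.000507 for TPM above 1. Symbols were matched to GENCODE M21 and RefSeq (844 of 29564 unmatched). Protein-coding genes outside the mitochondrial genome with at least 1 count in 9 of 10 mice (13305) were tested with edgeR 4.0.16 (TMM, quasi-likelihood), with Benjamini-Hochberg adjustment over all of them. The design assumed no batch, as the labels name none, and each group has 5 mice. DESeq2 1.42.0, limma 3.58.1 on log2(TPM + 1) with TPM rescaled to a fixed sum over the tested genes, length offsets, covariates and other filters served as alternatives, and the fits were tested on simulated data. Lengths were compared with limma on log2 bases. Single values were compared with a two-sided exact permutation test over 252 arrangements. Salmon divides reads among similar transcripts, so a level can shift with isoform assignment.

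The 10 genes and all lists were chosen with earlier results of these data known. Named are the 10 genes, the 3 genes of each partner or hypoxia list with the smallest unadjusted edgeR p, the gene most correlated with each of the 10, and the 3 highest and 3 lowest of the 45 pair correlations. A gene that this rule names in the Pink1 list is not reported here. Ldha's and Rhot2's length-adjusted values and the motif findings were picked after the values were seen, as were the covariates, limma on TPM as deposited, pair correlations on rescaled TPM, the level per annotated length and the fit without mice TT-587 and TT-591.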

Additional observations from a re-analysis of the deposited data

Results flagged for a closer look

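In 40 groups of 5 values (CPM and effective length of each gene in each group of mice), 4 held a mouse far from the others by Dixon's criterion, and chance marks about 1 in 20 groups. Bnip3l measured 111.35 CPM in control mouse TT-587, where the other controls lay between 94.6 and 97.9. HFD+mTAC mouse TT-591 came close at 110.0 CPM, and the other HFD+mTAC mice lay between 84.1 and 100.7. The effective length of Fis1 was 265.2 bases in control mouse TT-587 and 251.9 to 253.2 bases in the other controls. It was 271.6 and 264.8 bases in HFD+mTAC mice TT-590 and TT-591, and 253.2 to 253.7 in the others of that group. The effective length of Pink1 was 1249 bases in HFD+mTAC mouse TT-589 and 897 to 998 bases in the other HFD+mTAC mice. That of Fundc1 was 1419 bases in HFD+mTAC mouse TT-591 and 909 to 1000.5 bases in the others. Without mouse TT-587 no adjusted p of the 10 genes passed 0.05.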

How the results depend on the processing

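No paired analysis was possible because the groups share no replicate numbers. None of the 10 genes passed an adjusted p of 0.05 under any of 24 settings, and none of the partner genes under 23. Over all genes, 8 were called by edgeR, 120 by DESeq2, 1 by limma on TPM rescaled over the tested genes, 0 by limma on deposited TPM, 1 with lengths as offset, 25 with the length balance and 48 with the first principal component as covariate, 2 without mice TT-587 and TT-591 together, and 1 to 9 when 1 mouse was left out. The correlated pairs numbered 17, 10 on deposited TPM, 4 on rescaled TPM and 2 to 21 with 1 mouse left out. On deposited TPM, Opa1 and Bnip3l turned to r = 0.502, and Fis1 and Bnip3l (0.652), Mfn2 and Fis1 (-0.475) and Opa1 and Fis1 (-0.159) no longer passed (adjusted permutation p = 0.299, 0.141, 0.324 and 0.716). On rescaled TPM, Fis1 and Bnip3l (0.433) and Opa1 and Bnip3l (-0.177) did not pass. The 4 pairs that passed there were Mfn2 and Opa1 (0.954), Mfn2 and Mff (0.865), Mfn2 and Fis1 (-0.850) and Opa1 and Fis1 (-0.878). Their adjusted permutation p ran from 0.0027 to 0.0133. Several log2 fold changes, all near 0 in the main edgeR fit, turned sign, with Mff reaching 0.25. With limma on log2(rescaled TPM + 1), with offset and with limma on log2(rescaled TPM + 0.1) they were 0.11, 0.12 and 0.11 for Mfn2, -0.0025, -0.019 and -0.0033 for Opa1, 0.25, 0.22 and 0.25 for Mff, and 0.13, 0.067 and 0.13 for Pink1. With limma on log2(deposited TPM + 1) they were -0.13 for Opa1, 0.088 for Mff and -0.085 for Bnip3. With the length balance and with the principal component they were -0.13 and -0.10 for Opa1 and 0.054 and 0.014 for Fis1, and with the length balance 0.012 for Bnip3l. Without mice TT-587 and TT-591 they were 0.00096 for Mfn2 and 0.00031 for Mff. Bnip3 was -0.0043 with DESeq2 size factors, -0.0042 with DESeq2, -0.0029 with filterByExpr, -0.0047 with no filter and -0.0039 with all biotypes. With 1 mouse left out they ran from -0.21 (without TT-589) to -0.061 (without TT-591) for Mfn1, from -0.17 to -0.10 for Dnm1l, from -0.10 (without TT-589) to -0.023 (without TT-587) for Pink1 and from 0.0063 (without TT-584) to 0.13 (without TT-586) for Fundc1, which kept their sign, and from -0.084 to 0.061 (Mfn2), -0.082 to 0.12 (Opa1), -0.15 to 0.039 (Fis1), -0.042 to 0.018 (Mff), -0.053 to 0.094 (Bnip3) and -0.091 to 0.0071 (Bnip3l), and log2 length differences from -0.033 to 0.10 (Mfn1), -0.17 to 0.034 (Mfn2), -0.048 to 0.078 (Bnip3) and -0.0058 to 0.075 (Bnip3l). The cause was not tested.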
